A study of Homo sapiens with 12 samples.

Results

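Histone genes were followed in human cancer cells with and without mitochondrial DNA (mtDNA): the linker histone gene H1-2, the H2A genes H2AC6, H2AC8 and H2AC25 and the H2B genes H2BC5, H2BC12 and H2BC21. These 7 genes were selected on their ρ° against ρ+ signals in A549 and 143BTK-, and every probe set whose annotated gene was one of them, under its present or its older name, was taken. They are 7 of the 42 replication-dependent histone genes, and of the 11963 genes in all, that have a probe set of their own on the array, and they have 8 probe sets, 2 of them for H2BC5. Because this contrast chose them, their changes between ρ° and ρ+ cells are given as a description without a p-value.

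The study asked how nuclear genes respond when cells lose their mtDNA. Total RNA was hybridised to 12 Affymetrix human arrays, 3 for each of 4 groups, replicates A, B and C being separate RNA extractions. The groups were ρ+ (undepleted) and ρ° (depleted) cells of 2 cancer lines, A549 from a lung carcinoma and 143BTK- from an osteosarcoma (without thymidine kinase). The ρ° cells had been kept in 50 ng/ml ethidium bromide for 3 weeks and pooled without choosing clones, and all cells grew in high-glucose medium with 10% serum, 1 mM pyruvate and 50 µg/ml uridine. Whether the ρ° replicates came from separate depletions is not given in the sources used here, and the p-values reported for other genes measure only the spread between the arrays of a group. Values are MAS5 signals, a brightness per probe set that the authors quantile-normalized within each line, so that levels are not compared between the lines or between probe sets.

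Core histones form the spool around which DNA is wound, with H2A and H2B entering it as a dimer, and H1 proteins bind the DNA between the spools. Most histone genes lie in clusters, have no introns and are expressed when DNA is replicated, and their mRNA ends in a stem-loop in place of a poly(A) tail. Some of them also make a polyadenylated mRNA, mainly in cells that leave the cell cycle, while replacement histones such as those of the H2A.Z and H3.3 type are made throughout the cycle. The RNA was copied from an oligo(dT) primer, which reads polyadenylated mRNA, and how much of each histone mRNA carried such a tail was not measured.

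Of the 7 genes, 5 lie in the large histone cluster of chromosome 6: H1-2 at chr6:26055740-26056470 on the minus strand, H2AC6 at chr6:26124172-26124690 and H2AC8 at chr6:26216921-26217437 on the plus strand, H2BC5 at chr6:26158121-26171349 on the plus strand and H2BC12 at chr6:27138293-27146858 on the minus strand (GRCh38.p14, RefSeq). The others lie on the minus strand of chromosome 1, H2BC21 at chr1:149884459-149886682 and H2AC25 at chr1:228457364-228457873. The annotated spans of H2BC5 (13229 bases), H2BC12 (8566 bases) and H2BC21 (2224 bases) exceed those of H1-2 (731), H2AC6 (519), H2AC8 (517) and H2AC25 (510), which are of the length of a single coding exon with its short flanks.

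Sequence before the start is shown for 4 of the genes, H2AC25 and H2BC21 because their changes in A549 and 143BTK- lay furthest apart, and H2AC6 and H1-2 as an H2A gene and an H1 gene of chromosome 6 for comparison. Each stretch holds the 160 bases before the annotated start, 5′ to 3′ in the direction of the gene, from chr1:228457874-228458033 (H2AC25, minus strand), chr1:149886683-149886842 (H2BC21, minus strand), chr6:26124012-26124171 (H2AC6, plus strand) and chr6:26056471-26056630 (H1-2, minus strand) of GRCh38.p14, taken from RefSeq. Capitals mark the TATA box TATAAA, the CCAAT box named by its letters, the octamer ATTTGCAT known from H2B promoters and the H1 box AAACACA, each searched on both strands.
H2AC25: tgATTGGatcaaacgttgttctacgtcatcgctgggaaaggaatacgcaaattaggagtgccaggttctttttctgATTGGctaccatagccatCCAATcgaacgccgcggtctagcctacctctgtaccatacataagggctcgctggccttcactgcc
H2BC21: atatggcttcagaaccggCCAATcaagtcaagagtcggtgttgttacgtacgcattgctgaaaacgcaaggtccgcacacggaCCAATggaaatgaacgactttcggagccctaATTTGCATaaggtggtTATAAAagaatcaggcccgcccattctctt
H2AC6: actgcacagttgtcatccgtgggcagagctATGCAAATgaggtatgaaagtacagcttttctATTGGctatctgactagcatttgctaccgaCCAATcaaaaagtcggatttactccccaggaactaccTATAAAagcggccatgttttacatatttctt
H1-2: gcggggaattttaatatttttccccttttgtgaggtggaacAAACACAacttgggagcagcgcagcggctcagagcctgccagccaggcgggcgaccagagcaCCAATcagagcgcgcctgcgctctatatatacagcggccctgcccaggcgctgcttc

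All 7 genes had an entry in the RefSeq table, and the 250 bases before each start were searched. CCAAT was found in 7 of the 7 genes, in 82.8% of 58 other replication-dependent histone genes and in 37.0% of all 27305 genes of the table. TATAAA was found in 5 of 7 (67.2% of the other histone genes and 13.0% of all), and in H2AC6, H2BC5, H2BC12 and H2BC21 a copy in the direction of the gene lay between 31 and 22 bases before the start. ATTTGCAT was found in H2AC6, H2AC8, H2BC12 and H2BC21 (37.9% of the other histone genes and 2.03% of all), and AAACACA in H1-2 alone of the 7 (8.62% and 5.95%). In the window of H2AC25 only CCAAT was found, in 3 copies. A match is a description of the letters, and none of them was set against the signals.

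The arrays were checked before the genes were described. By percentile of mean signal in A549 and in 143BTK-, the epithelial markers CDH1 (84.3 and 0.61), KRT19 (54.5 and 1.90) and KRT8 (98.5 and 72.9) were higher in A549, KRT18 was high in both (99.3 and 99.2) and EPCAM was low in A549 (10.4 and 54.2). Of the mesenchymal and bone markers SPARC (23.5 and 95.4) and CDH11 (10.0 and 65.7) were higher in 143BTK-, whereas VIM (99.1 and 99.7), COL1A1 (69.5 and 70.8) and RUNX2 (26.9 and 27.9) were alike and COL1A2 (48.7 and 34.7) was not higher there. Markers of other cells stood at 6.22 and 12.7 (PTPRC), 10.7 and 1.51 (CDH5), 52.0 and 45.3 (CD3E) and 41.9 and 46.6 (PECAM1), the latter pair in the middle of the range. Replicates correlated with r between 0.897 and 0.948. The 143BTK- ρ° B and ρ+ C arrays deviated from their group means together (r = 0.389 across probe sets), as did ρ° A and ρ+ A (0.359) and, less, ρ° A and ρ+ B (0.273), so values of 143BTK- are also given without the B and C pair. In A549 such correlations lay between -0.105 and 0.107.

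Between the lines the 7 genes did not share a direction. In A549 the H2A gene H2AC25 was far lower in ρ° than in ρ+ cells and the H2B gene H2BC21 was lower, while H1-2 and H2AC6 were near their ρ+ level. In 143BTK- all 6 genes that could be measured had a higher mean in ρ° cells, H1-2 and H2AC6 by the largest amounts, and H2BC21 alone on all 3 arrays. Over these 6 genes the median log2 change, ρ° minus ρ+, was -0.32 in A549 (2 higher, 4 lower) and 0.81 in 143BTK- (6 higher), beside -0.0032 and -0.0023 over all probe sets kept.

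**Figure D1:**
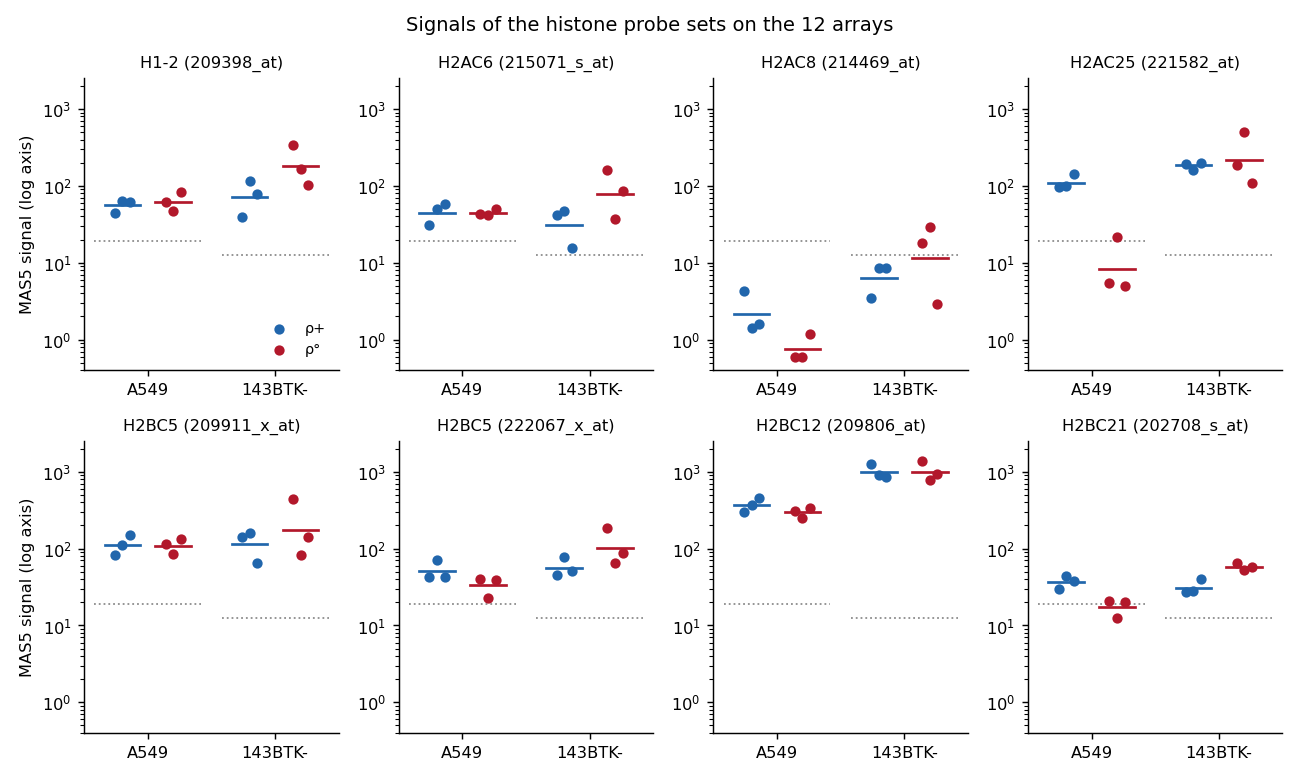
MAS5 signals of the 8 histone probe sets (log axis) on the 3 ρ+ arrays (blue) and the 3 ρ° arrays (red) of each line, with bars at the geometric means and dotted lines at the lowest mean signal kept (19.1 in A549, 12.6 in 143BTK-). H2AC25 in A549 lies between 95.4 and 143.1 in ρ+ and between 5.0 and 21.5 in ρ° cells, and H2AC8 lies around or below the dotted line in both lines.

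H1-2 encodes a linker histone of the somatic H1 group. In A549 its probe set gave signals of 62.0, 47.1 and 82.2 on the ρ° arrays A, B and C and of 44.6, 64.2 and 61.5 on the ρ+ arrays. The groups overlapped, and the log2 change was 0.15 ± 0.29 (SE of the fit, n = 3 in each group), with both signs among the values obtained when 1 array was left out (-0.05 to 0.35). In 143BTK- the signals were 339.5, 166.4 and 104.2 in ρ° and 39.7, 114.6 and 77.7 in ρ+ cells. Here ρ° A and ρ° B lay above every ρ+ array while ρ° C lay below ρ+ B, and the change was 1.35 ± 0.50, a 2.55-fold higher geometric mean. It was 0.90 without ρ° A and 1.48 without the ρ° B and ρ+ C arrays.

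H2AC6 encodes an H2A protein and is one of the histone genes known to yield polyadenylated mRNA. Its probe set read 43.5, 42.4 and 49.4 in ρ° A549 cells and 30.9, 50.1 and 58.7 in ρ+ cells. The ρ° arrays lay within the range of the ρ+ arrays, and the change was 0.00 ± 0.31. In 143BTK- it read 158.8, 36.7 and 85.4 in ρ° and 41.7, 46.5 and 15.7 in ρ+ cells. Again ρ° A was the highest array, ρ° B lay inside the ρ+ range, and the change was 1.34 ± 0.58 (2.54-fold). It was 0.84 without ρ° A, 0.85 without ρ+ C and 1.40 without both ρ° B and ρ+ C.

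H2AC8, an H2A gene of the same cluster, had signals too low to compare. They ran from 0.6 to 4.3 over the 6 arrays of A549, below the lowest mean signal kept (19.1), and from 2.9 to 29.6 in 143BTK-, where the geometric mean of neither group reached the lowest kept (12.6). No change is given for it, and it is the 1 gene of the 7 that did not pass the filter on low signals.

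H2AC25 lies in the distal part of chromosome 1 and encodes another H2A protein. On the ρ° arrays A, B and C of A549 its probe set read 5.5, 21.5 and 5.0, and on the ρ+ arrays 95.4, 98.8 and 143.1. Every ρ° array lay far below every ρ+ array. In these bulk RNA samples, fewer cells with the mRNA and less mRNA in each cell cannot be told apart. The mean of the ρ° arrays fell under the lowest mean signal kept, so the difference is given as a bound, at least 5.79-fold higher in ρ+ cells. The measured geometric means were 8.39 and 110, and the log2 change was -3.72 ± 0.54, or between -4.40 and -3.34 with 1 array left out and -1.24 with 64 added to every signal. As the gene passed the filter only through its ρ+ arrays, its presence among the measured genes rests on the group where it was high.

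In 143BTK- the same probe set read 185.3, 509.1 and 107.6 in ρ° and 191.4, 163.2 and 200.5 in ρ+ cells. The ρ+ arrays lay close together and inside the range of the ρ° arrays, which spread from the lowest to the highest of the 6. The change of 0.23 ± 0.49 rested on ρ° B, without which it was -0.38, and without ρ° B and ρ+ C it was -0.32. The A549 change minus that of 143BTK- was -3.95 ± 0.78, or -2.76 with the ρ° mean of A549 set to the lowest mean signal kept.

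Probe sets of H2AC25's neighbours were set beside it, since it lies apart from the other histone genes of the list. Of the genes within 1 Mb, 6 had 9 probe sets kept in A549, with a median log2 change of -0.55 (-1.33 to 0.67) beside -0.04 over chromosome 1. In limma 2 of the 9 passed, both lower (Benjamini-Hochberg over all probe sets), where 10.9% of all probe sets passed in either direction. These were RNF187, a ubiquitin ligase gene (-1.33, adjusted p = 0.00468), and 1 of the 2 probe sets of GUK1, guanylate kinase (-0.87, adjusted p = 0.0220), the other reading 0.08. The call of RNF187 held without any 1 of the 6 arrays, and that of GUK1 held only when ρ° C or ρ+ C was the array left out. In 143BTK- the 9 had a median of 0.30 (-0.04 to 0.78) and 0 passed, where 0% of all probe sets did. These genes were looked at after the value of H2AC25 was known, and the part of the region in its change was not tested. Around H2BC21 the median was 0.28 in A549 (23 probe sets) and -0.38 in 143BTK- (28), opposite in sign to H2BC21 itself in both lines. In A549 1 of the 23 passed, PRPF3, which like H2BC21 was lower (-1.36, limma adjusted p = 0.0231). Around H1-2, H2AC6 and H2BC5 the median was 0.20 and 0.30, and in A549 1 of 26 probe sets passed, of HFE, higher (1.67, adjusted p = 0.0333). In 143BTK- 0 passed around any of these genes.

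**Figure D2:**
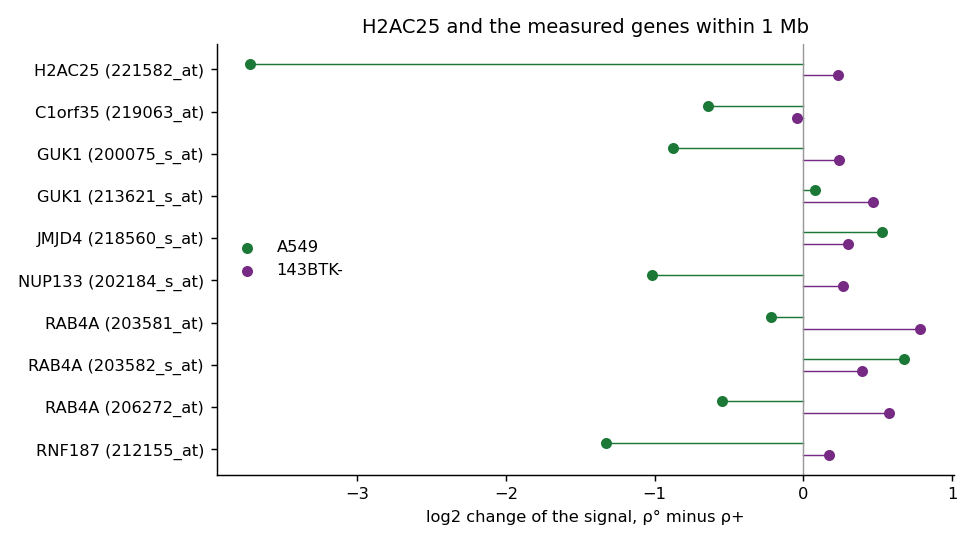
Log2 change of the signal, ρ° minus ρ+, of H2AC25 and of the 9 kept probe sets of genes within 1 Mb of it, in A549 (green) and 143BTK- (purple), each point joined to 0. H2AC25 stands at -3.72 in A549, and its neighbours between -1.33 and 0.67.

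H2BC5 encodes an H2B protein and had 2 probe sets, both of the _x_at kind, whose probes can also bind mRNA of related genes. In A549 the brighter one read 113.9, 84.2 and 134.0 in ρ° and 83.4, 113.0 and 148.2 in ρ+ cells, and the dimmer one read 40.7, 23.0 and 39.2 in ρ° and 42.6, 71.2 and 42.8 in ρ+ cells. The former overlapped (-0.04 ± 0.28), whereas the latter was lower on all 3 ρ° arrays (-0.61 ± 0.35). In 143BTK- they read 436.8, 81.4 and 143.4 against 139.7, 157.8 and 65.9, and 187.4, 64.3 and 88.5 against 45.8, 78.2 and 50.9. Both were highest on ρ° A and overlapped between the groups, with changes of 0.60 ± 0.58 and 0.85 ± 0.41. Without ρ° A these were -0.07 and 0.41, and without ρ° B and ρ+ C 0.75 and 1.11.

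H2BC12, also an H2B gene, lay at the 91.2 percentile of mean signal in A549 and at the 97.2 percentile in 143BTK-. Its probe set read 312.7, 252.4 and 333.0 in ρ° A549 cells and 296.3, 370.9 and 460.5 in ρ+ cells. In 143BTK- it read 1385.7, 774.2 and 943.8 in ρ° and 1255.1, 906.1 and 847.1 in ρ+ cells. The groups overlapped in both lines, with changes of -0.32 ± 0.22 and 0.02 ± 0.25, and H2BC12 had the smallest spread between the lines (difference -0.34 ± 0.35).

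H2BC21, the H2B gene of the smaller cluster on chromosome 1, was the 1 gene of the 7 whose groups stood apart in both lines, in opposite directions. In A549 its probe set read 20.7, 12.6 and 20.2 in ρ° and 29.8, 44.1 and 38.4 in ρ+ cells. Each ρ° array was dimmer than each ρ+ array, and as the ρ° mean was under the lowest mean signal kept, ρ+ cells were at least 1.94-fold higher (geometric means 17.4 and 37.0, log2 change -1.09 ± 0.38). Like H2AC25, it passed the filter in A549 only through its ρ+ arrays. In 143BTK- it read 65.2, 52.2 and 56.8 in ρ° and 27.3, 27.7 and 39.7 in ρ+ cells. Each ρ° array was brighter than each ρ+ array, the mean by 1.86-fold (0.90 ± 0.29), with 0.80 to 1.07 when 1 array was left out and 1.15 without ρ° B and ρ+ C. The change in A549 minus that in 143BTK- was -1.98 ± 0.45, or -1.85 with the ρ° mean of A549 set to the lowest mean signal kept.

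**Figure D3:**
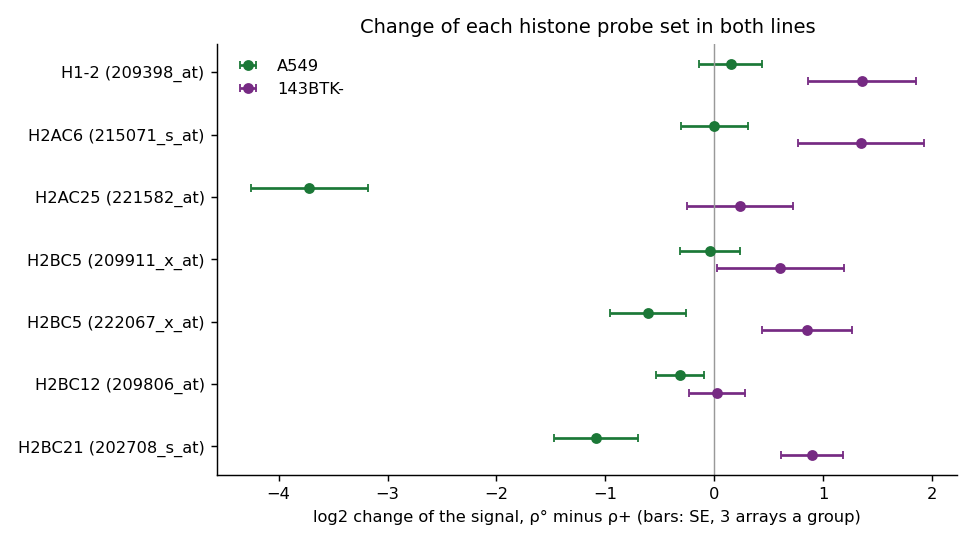
Log2 change of the signal, ρ° minus ρ+, for the 7 histone probe sets kept, in A549 (green) and 143BTK- (purple), with the SE of the fit over 3 arrays a group. In 143BTK- all 7 lie above 0 (0.02 to 1.35), and in A549 H2AC25 (-3.72) and H2BC21 (-1.09) lie furthest below it.

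Of the 7 probe sets kept in A549, 3 had groups that did not overlap (H2AC25, the dimmer probe set of H2BC5 and H2BC21, all lower in ρ°), where 31.9% of all probe sets did so, and 2 had a higher mean in ρ° cells, where 49.7% did. In 143BTK- 1 had groups that did not overlap (H2BC21), beside 14.8% of all, and 7 had a higher mean, beside 49.7%. With a limma fit over all probe sets, 1 of the 7 passed in A549 (H2AC25), where 10.9% of all probe sets passed, and 0 in 143BTK-, where 0% did (1175 had an unadjusted p below 0.05). In a fit of all 12 arrays H2AC25 alone of the 7 passed for the mean change of both lines (3.70% of all passed), and H2AC25 and H2BC21 for the difference between the lines (1.95% of all passed). The call for the mean was lost with 64 added, with no intensity trend and without ρ° A or ρ+ B of A549 or ρ° A, ρ+ A or ρ+ B of 143BTK-. Both calls for the difference were lost without ρ° A or ρ+ B of A549. That of H2AC25 was also lost with 64 added, and that of H2BC21 without the filter, with the replicate block and with several other arrays left out. H2AC25 and H2BC21 passed the filter in A549 only through their ρ+ arrays. As the contrast also chose the genes, these calls are no test of them, and nothing is drawn from the calls or counts.

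The arrays within a group differed in the level of these genes as a whole. Averaged over the 6 genes and relative to the mean of the line, the log2 level of 143BTK- was 0.95, 0.15 and 0.04 on the ρ° arrays A, B and C and -0.42, -0.17 and -0.56 on the ρ+ arrays. The ρ° A array stood highest, and on it the 4 measured genes of chromosome 6 averaged 1.30, beside -0.19 and 0.18 on ρ° B and C. Without that array the median change of the 6 genes in 143BTK- was 0.58 in place of 0.81, and without ρ° B and ρ+ C it was 1.04. In A549 the level was -0.47, -0.49 and -0.37 on the ρ° arrays and 0.10, 0.56 and 0.67 on the ρ+ arrays. Without H2AC25 the A549 arrays overlapped (ρ° -0.07, -0.49 and 0.08, ρ+ -0.21, 0.33 and 0.35).

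As a description, the deviations of these probe sets from their group means were compared in pairs over the 6 arrays of a line. The probe sets of an array read the same RNA sample. In A549 the 14 pairs without H2AC25 had a median Pearson r of 0.797 (0.292 to 0.991), and in 143BTK- of 0.413 (-0.20 to 0.959). The 6 pairs with H2AC25 had a median r of -0.514 in A549 (-0.779 to 0.0377), where its ρ° mean lies under the lowest mean signal kept, and of -0.419 in 143BTK- (-0.606 to 0.113). Some of the pairs can share probes' targets, as 4 of the 8 probe sets are of the _s_at or _x_at kind.

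Few other histone genes of this type gave a signal to compare. Of 35 other replication-dependent histone genes with a probe set of their own, 5 were kept in A549 and 8 in 143BTK-, with median log2 changes of 0.23 and 0.41. In A549 only H3C6, an H3 gene of chromosome 6, passed, with 44.5, 54.7 and 38.7 in ρ° and 21.4, 18.0 and 19.6 in ρ+ cells. Each ρ° array was brighter than each ρ+ array, and H3C6 rose 2.32-fold (log2 1.21 ± 0.33, limma adjusted p = 0.0399), opposite to H2AC25 and H2BC21. Its ρ+ signals lay around the lowest mean signal kept (19.1), so the size of this rise is uncertain. In 143BTK- it read 27.3, 28.3 and 24.2 against 20.8, 22.3 and 17.5 (1.32-fold, adjusted p = 0.776), and its mean change over both lines was 0.81 (adjusted p = 0.0489). The call in A549 was lost without any 1 of ρ° A, B or C or ρ+ A or B, without the filter and with changes centred on the chromosome median, and that of the mean change without any 1 of the 12 arrays. H2AC14 alone of the 5 read lower in A549, without passing (-1.24 ± 0.52, limma adjusted p = 0.156). Its signals were 12.0, 8.0 and 30.6 in ρ° and 28.4, 32.7 and 42.1 in ρ+ cells. The groups overlapped, and ρ° A and B lay under the lowest mean signal kept. In 143BTK- its change was 0.41 (adjusted p = 0.776). On the array level the other replication-dependent histone genes were, like the 7, highest on 143BTK- ρ° A (0.68).

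**Figure D4:**
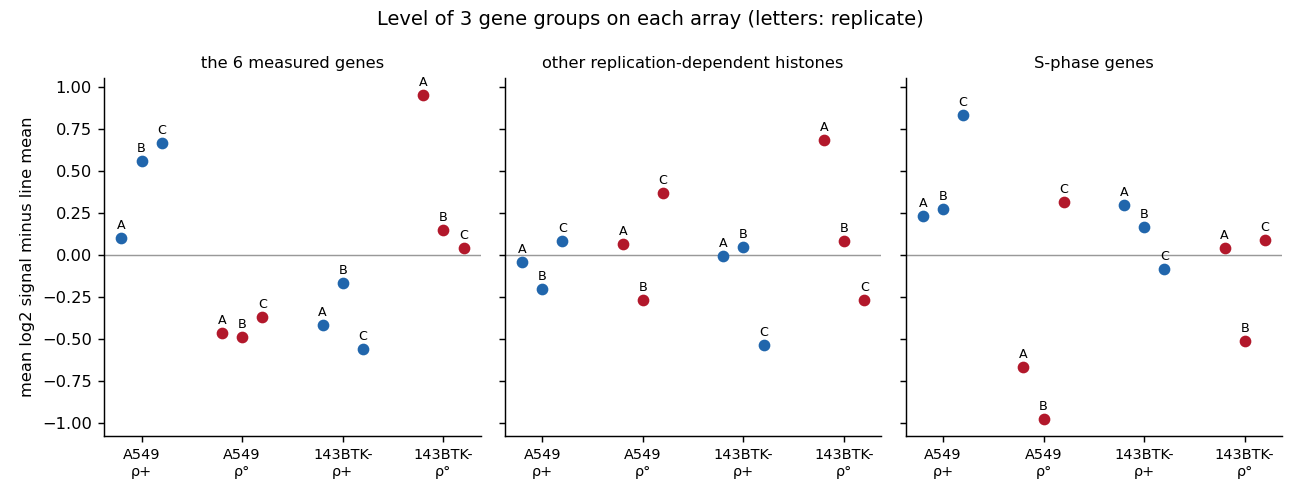
Mean log2 signal minus the line's mean on each of the 12 arrays for the 6 measured genes (left), the other replication-dependent histone genes kept (middle) and S-phase genes (right), with ρ+ in blue, ρ° in red and letters for the replicate. The 6 genes and the other histones are both highest on the 143BTK- ρ° A array (0.95 and 0.68), and S-phase genes are lowest on the A549 ρ° A and B arrays (-0.67 and -0.98).

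Replacement histone genes, made independently of replication, were measured as 8 genes in each line, and 0 passed in either when a gene was represented by its brightest probe set (limma, 1 gene with an unadjusted p below 0.05 in A549 and 0 in 143BTK-). The study, with another test at a per-gene level of 0.05, named H2AZ1 and H2AX (as H2AFZ and H2AFX) as lower in ρ° cells. Both probe sets of H2AZ1 read lower without passing (-0.69 and -0.74 in A549, -0.56 and -0.30 in 143BTK-). Those of H2AX had both signs in A549 (-0.34, 0.57 and -0.50) and in 143BTK- (-0.50, 0.21 and -0.04). By single probe set, H2AZ2, an H2A.Z gene, fell in A549 on 2 of its 3 probe sets (-1.51, adjusted p = 0.0224, and -1.49, adjusted p = 0.0455), and the third, its brightest, read -0.10. The larger of these changes came from signals of 70.4, 59.0 and 156.6 in ρ° and 213.7, 228.2 and 308.8 in ρ+ cells, and the groups stood apart, with ρ° C nearest to the ρ+ arrays. MACROH2A1, a large H2A variant, rose on 1 of its 3 probe sets (1.41, adjusted p = 0.0326) while the others read -0.25 and 0.16. Of the 20 probe sets of other histone genes tested in A549, 2 passed higher and 2 lower (10.9% of all passed), and 0 of the 20 passed without ρ° A, without ρ° B or without ρ+ B. Without ρ° C 0 passed higher and 5 lower, of H2AZ1, H2AZ2 and H2AX. In 143BTK- 0 of 23 passed.

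Of genes whose products act in making, processing or using histone mRNA, 8 were measured. In A549 and in 143BTK- 0 passed (limma, 1 with an unadjusted p below 0.05 in A549, 0 in 143BTK-), with median changes of -0.0046 and -0.03. In A549 CTIF (0.73, adjusted p = 0.266) and ZNF473 (-0.67, adjusted p = 0.205) had the largest differences. SLBP, which binds the stem-loop, read -0.08 in A549 and 0.06 in 143BTK-.

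Of 20 histone chaperone genes, 3 passed in A549, where 10.9% of all probe sets did. The gene of the H2A-H2B chaperone NAP1L1 rose (0.83, limma adjusted p = 0.0119), and those of CHAF1A, a subunit of the chromatin assembly factor that works behind the replication fork (-1.12, adjusted p = 0.0311), and of HJURP, which loads the centromeric H3 (-1.16, adjusted p = 0.0458), fell. In 143BTK- 0 passed, and these read 0.00, 0.05 and -0.24. Without ρ° A, ρ° B or ρ+ B 0 of the 3 passed, and without ρ+ A, or without the filter, NAP1L1 alone. HJURP did not pass without ρ+ C or with changes centred on the chromosome median either, and with no intensity trend 0 of the 20 passed.

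Clustered histone genes are known to be expressed with the S-phase genes. Of 28 S-phase genes tested in A549, 6 fell and 0 rose (10.9% of all probe sets passed), with a median of -0.82, and the arrays of the groups overlapped. The 4 largest changes were those of CDC25A, a phosphatase that drives entry into S phase (-2.65, limma adjusted p = 0.00794), GINS2 (-2.01, adjusted p = 0.0274), PCNA, the sliding clamp of replication (-1.49, adjusted p = 0.0151) and CCNE1, cyclin E1 (-1.34, adjusted p = 0.0126). The list averaged -0.67 and -0.98 on ρ° A and B but 0.31 on ρ° C, above 0.23 and 0.27 on ρ+ A and B, and below 0.83 on ρ+ C. Without ρ° C 12 fell (median -1.34), without ρ° A or ρ° B CDC25A alone did, and without ρ+ B CDC25A and CCNE1 did. H2AC25 and H2BC21 were below their ρ+ range on ρ° C as well (5.0 and 20.2), and the part of S-phase expression in their levels was not tested. In 143BTK- 0 of 29 passed (median -0.26), and the S-phase level of ρ° A, where the histone genes stood highest, was 0.04, beside 0.29, 0.17 and -0.08 on ρ+ A, B and C. Over both lines CDC25A, PCNA and RRM2 fell (-1.54, -1.25 and -0.93, limma adjusted p = 0.0215, 0.0215 and 0.0495). All of these calls were lost without ρ° A, ρ° B or ρ+ B of A549 or ρ+ A or ρ+ B of 143BTK-. With 1 array left out RRM2 passed only without ρ° C of A549. It was also lost without the filter and with changes centred on the chromosome median. With no intensity trend PCNA and RRM2 were lost, and with a mean signal of at least 100 CDC25A was. A difference between the lines passed for 0 of 28.

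Among 9 genes of cell-cycle exit tested in A549, 1 passed, and of 18 histone acetylases and deacetylases 2 did, shares near the 10.9% of all probe sets. CCNG1, cyclin G1, rose (1.44, limma adjusted p = 0.0149), and in 143BTK- 0 of 8 passed. Of the acetylation enzymes HDAC5, a class II deacetylase, rose in A549 (1.84, adjusted p = 0.00794) and over both lines (1.36, adjusted p = 0.0133), and KAT6A, an acetylase, fell in A549 (-0.94, adjusted p = 0.0158). KAT6A read 0.25 in 143BTK-, and its difference between the lines passed (-1.19, adjusted p = 0.0350), though with 1 array left out it did so only without ρ+ C of 143BTK-. The call of HDAC5 over both lines held without any 1 of the 12 arrays, while those of CCNG1 and KAT6A in A549 were lost without ρ° A or ρ+ B. That of CCNG1 was also lost without ρ° B or with no intensity trend, and that of KAT6A with changes centred on the chromosome median. In 143BTK- 0 of the 18 passed, where 0% of all probe sets did. The study, with another test, named HDAC1 as lower in ρ° cells. Here HDAC1 read lower without passing, by -0.63 in A549 (limma adjusted p = 0.0807) and -0.85 in 143BTK- (adjusted p = 0.668). Without ρ° C it passed in A549.

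Genes whose pattern was most like the mean of the 6 histone genes were sought over the 12 arrays, after centring each line on its mean. The 5 highest Pearson r were those of ARPC2 (0.967), WIPI2 (0.943), SCCPDH (0.927), GNPAT (0.915) and NT5C2 (0.914), and the 3 lowest those of GALK1 (-0.927), WASHC4 (-0.915) and GATM (-0.910). The arrays form 4 groups, whose means set much of such an r, and the values are a description. In A549 the mean of the 6 genes separated the groups only with H2AC25 in it, whose ρ° mean lay under the lowest mean signal kept.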

How the data were processed

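Signals of 12 Affymetrix arrays (22283 probe sets) were used, grouped by line and mtDNA state from the sample labels. The deposited intensity of a probe set is its MAS5 signal, on a linear scale, which the authors quantile-normalized over the 6 arrays of each line. The signals of an array had a median of 31.3 to 31.4 in A549 and of 27.6 in 143BTK-, and the number of arrays limits the precision.

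The genes, the lists beside them and the tests were chosen with earlier results of these data known. The platform annotation gave the names, 19071 probe sets with 1 gene, 1043 with several (not named) and 2169 with none. The authors dropped those with Absent calls throughout a line. Here a rank by mean log2 signal within a line took the place of these calls, and as many probe sets were kept as in the study, 58.8% in A549 and 62.9% in 143BTK-. Log2 signals were compared with limma 3.58.1 in R 4.3.3 (lmFit, eBayes with an intensity trend, two-sided, Benjamini-Hochberg over all kept probe sets, threshold 0.05), in each line and, over the 54.5% kept in both, in all 12 arrays for the mean change and the difference between the lines. A listed gene was represented by its kept probe set with the highest mean signal, and of the 7 genes every kept probe set was used, averaged over H2BC5. A group whose geometric mean lay below the lowest mean signal kept gave a bound against that signal. All 7 genes and every non-member histone gene that passed are named. Of each list up to 4 genes a direction and fit that passed are named, or 2 examples where none did. SLBP, H2AC14, HDAC1 and the neighbours within 1 Mb were named after their values were seen. The fit was tested on simulated data with known changes. Alternatives were 16 or 64 added before log2, no filter, a mean signal of at least 100, quantile normalization over 12 arrays, scaling to one trimmed mean, a block for the replicate letter, no intensity trend, changes centred on the chromosome median, the dimmest or brightest of a gene's probe sets and, in turn, each array left out. Leaving out the 143BTK- ρ° B and ρ+ C arrays was chosen after seeing the data. Promoters are RefSeq's (GRCh38.p14). Python 3.11.15 with matplotlib 3.10.9 gave the figures.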

Additional observations from a re-analysis of the deposited data

Results flagged for a closer look

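The change from ρ+ to ρ° cells differed between the lines most for H2AC25 (A549 log2 change minus that of 143BTK- -3.95) and H2BC21 (-1.98). These signals chose both genes, and no test is drawn from them. Their ρ° means in A549 lay under the lowest mean signal kept, and with that signal in their place the differences were -2.76 and -1.85. The change of KAT6A also differed between the lines in a test of the difference itself (-1.19, limma adjusted p = 0.0350). With 1 array left out this difference passed only without ρ+ C of 143BTK-, and it did not pass with the replicate block, with no intensity trend, with changes centred on the chromosome median or without both ρ° B and ρ+ C of 143BTK-.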

How the results depend on the processing

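Of 195 changes of the 7 genes' probe sets under the alternatives, 190 moved by less than 1 SD of the replicates, and 16 had another sign, 15 of them where the log2 change reported was under 0.35 in size. The other 5 were the smaller changes with a constant added before log2: H2AC25 in A549 -2.30 with 16 and -1.24 with 64, H2BC21 in A549 -0.66 and -0.31, and H2BC21 in 143BTK- 0.35 with 64. The SD was the larger of those of the groups compared, up to 1.23 in log2 (H2BC5 in 143BTK-). A probe set's change cannot move with no filter, a mean signal of at least 100 or the replicate block. With scaling to one trimmed mean it hardly moved, so nothing is drawn from the count of 190. The median of the 6 genes lay between -0.48 and -0.15 in A549 and between 0.58 and 1.07 in 143BTK- with 1 array left out. With 64 added before log2 it was -0.20 in A549 and 0.41 in 143BTK-. A mean signal of at least 100 left 2 of their probe sets in A549 and 4 in 143BTK-, and the medians were -0.18 and 0.42. Other histone genes that passed, with the brightest probe set of each, numbered 1 in A549 (H3C6) and 0 with no filter, with a mean signal of at least 100 or with the chromosome median centred, 3 with the dimmest probe set, and 0 to 2 with 1 array left out. For the mean change they numbered 1 and then 0 under no filter, a mean signal of at least 100, the replicate block, the chromosome median centred, the 143BTK- ρ° B and ρ+ C arrays left out, and any 1 array left out (0 to 0). Genes of the other lists that passed for the mean change numbered 4, 2 with a mean signal of at least 100, 2 with no intensity trend, 7 with the replicate block and 1 to 11 with 1 array left out. The replicate letters were not taken to pair samples in the main fits. Deviations of same-lettered arrays correlated with r of 0.107, 0.0543 and 0.0861 in A549, above all pairs of other letters (-0.105 to 0.0193). In 143BTK- they were 0.359, -0.106 and -0.0155, beside -0.469 to 0.389 for other letters. Whether same-lettered arrays were handled together is not given in the sources used here. As each letter has 1 array in every group, the replicate block cannot change a log2 change (medians -0.32 and 0.81), only its error. With the replicate block H3C6 did not pass in A549, nor KAT6A for the difference between the lines. In A549 10 S-phase genes fell with the replicate block in place of 6, and 3 did with the chromosome median centred and 2 with no intensity trend. All probe sets that passed in A549 numbered 1422, 770 with no intensity trend and 425 to 1921 with 1 array left out. The causes were not tested. With 3 arrays a group, small changes of dim histone probe sets are not resolved.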
